A study of Rattus norvegicus with 6 samples.

Results

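The genes described are Thra, Thrb, Dio2, Dio3 and Klf9, which carry out thyroid hormone action inside the cell: 2 receptors, 2 deiodinases and 1 target gene of the receptors. They were chosen by name, and all 5 were measured among 14506 genes, each by 1 probe set with 1 gene symbol. Signals came from 6 Affymetrix arrays of total RNA from rat testis cells in primary culture, labelled as Sertoli cells. Of these, 3 arrays came from 9-day-old rats, whose cells the labels place in the proliferation phase, and 3 from 21-day-old rats, after it. Per the labels, decapsulated testes of both ages were digested to a suspension and plated in DMEM/F12 with 10% fetal bovine serum, with changes of medium to enrich Sertoli cells. The labels name no other agent for either age. Strain, the number of rats behind a culture and thyroid status are not given in the labels. Serum can itself carry thyroid hormones, and their levels in the medium are not given. At both ages the array numbered 3 was unlike the others, with markers of smooth muscle cells 1.36 (9 days) and 1.58 (21 days) above the other arrays of their age on the log2 scale, and the members are also given without these arrays.

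Thyroid hormone reaches the cell through membrane carriers, mostly as thyroxine. Type 2 deiodinase, made from Dio2, turns thyroxine into the active triiodothyronine, and type 3 deiodinase, made from Dio3, inactivates both. Triiodothyronine binds the nuclear receptors encoded by Thra and Thrb, which sit on DNA with retinoid X receptors and exchange corepressors for coactivators, and Klf9 is one of the genes that the bound receptor switches on in many tissues. In the young testis, thyroid hormone is known for ending the division of Sertoli cells and advancing their maturation, an effect that runs mainly through the receptor from Thra.

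Promoter sequences are shown because they set the members apart in a way that was independent of the signals. They run from 250 bases before to 50 bases after the transcription start in RefSeq's GRCr8 assembly, with 1 start for Thrb, Dio2, Dio3 and Klf9 and 2 for Thra. Capitals mark GC boxes (GGGCGG, searched on both strands, so also CCGCCC) and TATA boxes (TATAAA, both strands). The first lies at chr10:84197891-84198190 on the plus strand, the second at chr15:10461397-10461696 on the minus strand, the third at chr6:115410545-115410844 on the minus strand and the last at chr6:135106822-135107121 on the plus strand.
Thra: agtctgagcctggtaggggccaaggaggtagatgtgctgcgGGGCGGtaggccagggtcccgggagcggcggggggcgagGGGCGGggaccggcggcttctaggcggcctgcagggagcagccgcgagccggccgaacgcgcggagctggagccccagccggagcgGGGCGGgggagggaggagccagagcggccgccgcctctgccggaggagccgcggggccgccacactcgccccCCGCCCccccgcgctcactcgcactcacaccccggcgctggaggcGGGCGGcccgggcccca
Thrb: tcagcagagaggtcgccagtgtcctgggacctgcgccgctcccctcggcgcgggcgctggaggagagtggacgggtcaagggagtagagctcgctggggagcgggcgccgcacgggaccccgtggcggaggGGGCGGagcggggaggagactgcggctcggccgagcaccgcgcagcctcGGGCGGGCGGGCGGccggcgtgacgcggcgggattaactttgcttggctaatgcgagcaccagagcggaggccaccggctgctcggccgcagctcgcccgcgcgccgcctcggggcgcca
Dio2: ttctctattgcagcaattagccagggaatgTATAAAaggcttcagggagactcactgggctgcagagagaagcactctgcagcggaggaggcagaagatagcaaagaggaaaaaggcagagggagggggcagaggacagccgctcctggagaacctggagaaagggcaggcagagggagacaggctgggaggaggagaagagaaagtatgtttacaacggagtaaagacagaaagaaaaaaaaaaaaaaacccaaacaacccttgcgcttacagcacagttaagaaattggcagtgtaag
Dio3: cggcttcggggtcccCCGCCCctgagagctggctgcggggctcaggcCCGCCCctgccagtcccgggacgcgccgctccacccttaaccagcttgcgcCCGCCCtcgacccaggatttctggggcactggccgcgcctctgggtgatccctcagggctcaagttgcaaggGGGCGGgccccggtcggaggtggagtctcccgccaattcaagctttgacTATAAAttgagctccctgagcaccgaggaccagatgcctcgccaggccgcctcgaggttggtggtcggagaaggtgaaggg

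Both receptor promoters were rich in G and C, with 79.7% for the upstream start of Thra and 76.0% for Thrb, against a median of 51.7% over 33469 promoters of this length. The upstream promoter of Thra held 5 GC boxes and no TATA box, and that of Thrb held 4, 3 of which overlap one another. The deiodinase promoters differed from each other. That of Dio3, at 68.3% G and C, held 4 GC boxes and a TATA box on its own strand that begins 31 bases before the start. That of Dio2, at 49.0%, held no GC box, and its TATA box begins 220 bases before the start. A GC box occurred in 33.1% and a TATA box in 14.2% of all promoters. The promoter of Klf9 (chr1:230126396-230126695, plus strand, 65.3% G and C) and the downstream start of Thra (46.3%) held neither. The receptors' recognition hexamer AGGTCA (both strands) was in 0 of these 6 windows and in 16.2% of all promoters, which says only that these letters are not in these windows.

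None of the 5 genes differed between the ages beyond the spread of the arrays. In limma, which fits each gene and borrows its variance from all genes, 0 of 5 had an adjusted p under 0.05, and the Benjamini-Hochberg adjusted p was 1 for each of them. Over all 14506 genes the share called was 0%, so the members' count equals the background. At an unadjusted p under 0.05 there were 0 of 5 members, against 2.97% of all genes, and 0 of 5 against 7.73% in the fit that takes replicate number as a block. The 3 values of one age were clear of the 3 of the other for 0 of 5 members and for 5.72% of all genes, 2.74% higher and 2.98% lower at 21 days. The labels do not tell whether replicates were separate rats or cultures, so these p-values measure the spread between these arrays, which may be technical. In cultures of mixed cells, fewer cells of a type and less RNA per cell cannot be told apart.

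**Figure D1:**
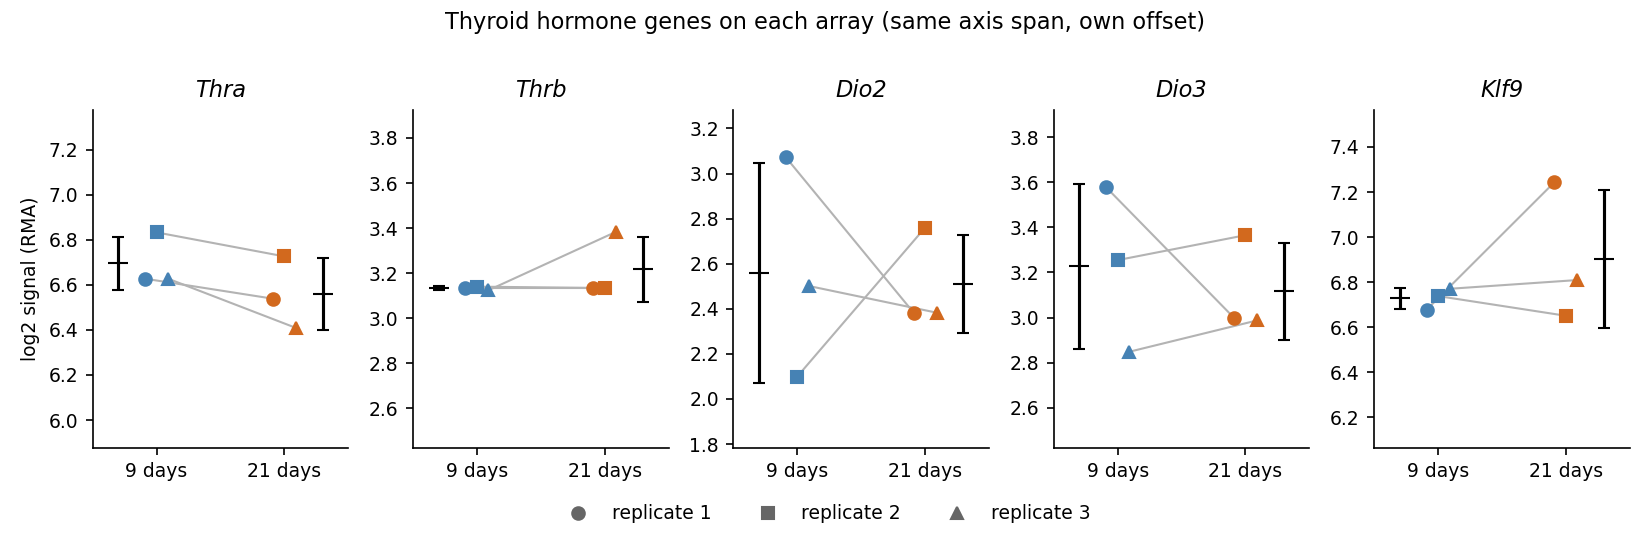
Log2 signal of each member on each array (blue, 9 days; orange, 21 days; symbols, replicate numbers; grey lines join the same number; black bars, mean and SD of 3 arrays). All panels span the same number of log2 units, and the ages overlap in every panel: Thra is lower at 21 days along all 3 lines, while Dio2 ranges from 2.10 to 3.07 at 9 days alone.

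Thra encodes the receptor through which thyroid hormone mainly acts on Sertoli cells. It was at a log2 signal of 6.63, 6.83 and 6.63 in 9-day-old replicates 1, 2 and 3. In replicates 1 and 3 of this age its value was the same to the last deposited digit. At 21 days Thra was at 6.54, 6.73 and 6.41. The number 2 arrays were the highest of both ages, and 21-day-old replicate 3 was the lowest of all. The means were 6.70 ± 0.12 and 6.56 ± 0.16 (SD, n = 3 each). The difference, 21 days minus 9 days, was -0.14 ± 0.11 (log2, SE), with a 95% confidence interval from -0.41 to 0.13. On the linear scale this is 0.909 of the younger level, with an interval from 0.754 to 1.10. Compared within each replicate number, Thra was lower at 21 days in all 3 pairs, by -0.089, -0.11 and -0.22, as were 19.0% of all genes. Its mean signal lay at the 75.1 percentile of all genes, a rough guide only, since signals of different probe sets are not amounts of transcript. The probe set, 10738056, is assigned both transcripts of Thra in the probe table, so the receptor and the splice form that binds no hormone were not told apart.

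Nr1d1 encodes the clock repressor Rev-erb alpha and lies next to Thra on the other strand, with its end overlapping one Thra transcript. It was at 5.52, 5.60 and 5.92 at 9 days and at 5.69, 5.76 and 6.27 at 21 days. The number 3 array was the highest at each age, and 21-day-old replicate 3, lowest for Thra, was highest for Nr1d1. Nr1d1 was higher at 21 days in all 3 pairs, as were 10.7% of all genes, and its difference was 0.23 ± 0.19 (log2, SE), with a limma adjusted p of 1. With the block, the unadjusted limma p was 0.031 for Nr1d1 (adjusted 0.600) and 0.11 for Thra (adjusted 0.732), where 7.73% of all genes were under 0.05. Thus the neighbours differed in opposite directions between the ages, and neither passed the adjusted test in either fit.

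Thrb, the second receptor gene, was at 3.13, 3.14 and 3.12 at 9 days and at 3.13, 3.13 and 3.38 at 21 days (log2). All arrays except 21-day-old replicate 3 thus lay between 3.12 and 3.14. The means were 3.13 ± 0.0081 and 3.22 ± 0.14 (SD, n = 3 each), a difference of 0.085 ± 0.087 (SE) with an interval from -0.13 to 0.30. Without 21-day-old replicate 3 the difference was 0.0013, so that array alone made it. Its signal lay at the 30.7 percentile of all genes and below the medians of all arrays, 3.78 to 3.87. To the last deposited digit, 9-day-old replicate 1 and 21-day-old replicates 1 and 2 had the same value. Such repeats are frequent in this table: 37.8% of genes have a value that recurs between arrays, 61.6% among the 3627 genes of lowest mean signal and 11.3% among the 3627 of highest. No detection calls were used here, so it is unknown whether Thrb was above background, and a small difference does not show a constant level.

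Dio2, which makes active hormone, had the widest spread of the members. It was at 3.07, 2.10 and 2.50 at 9 days and at 2.38, 2.76 and 2.38 at 21 days (log2). Both the highest and the lowest of the 6 arrays were from 9-day-old rats. In 21-day-old replicates 1 and 3 the deposited value was exactly the same. The means were 2.56 ± 0.49 and 2.51 ± 0.22 (SD, n = 3 each), and the difference was -0.049 ± 0.26 (SE). The interval from -0.69 to 0.60 corresponds to 0.619 to 1.51 of the younger level, so a loss or gain within those bounds could not be told from no change. The sign turned without 9-day-old replicate 1 (0.21) and without 21-day-old replicate 1 or 3 (0.014 each). The signal lay at the 15.2 percentile of all genes and below the medians of all arrays, 3.78 to 3.87. As for Thrb, it is unknown whether Dio2 was above background. In 9-day-old replicate 2, 105 other probe sets on the same array had exactly the same value as Dio2, 2.10, where the other 5 arrays had 0 such probe sets. The low value of that array is thus one that many probe sets share, and the pairwise differences of Dio2, -0.69, 0.66 and -0.12, include it.

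Dio3, which inactivates the hormone and lies in an imprinted region, was at 3.58, 3.25 and 2.85 at 9 days and at 3.00, 3.37 and 2.99 at 21 days (log2). The younger arrays spanned the whole range, with the highest and the lowest of the 6 among them. The means were 3.23 ± 0.37 and 3.12 ± 0.22 (SD, n = 3 each), and the difference was -0.11 ± 0.21 (SE), with an interval from -0.63 to 0.41. Dio3 was lower at 21 days in the first pair by -0.58 and higher in the others by 0.11 and 0.14. The sign turned without 9-day-old replicate 1 (0.066). In 21-day-old replicate 1, 50 other probe sets had exactly its value. The signal lay at the 30.6 percentile of all genes and below the medians of all arrays, so it is unknown whether Dio3 was above background. For both deiodinases the array highest at 9 days was replicate 1, and at 21 days replicate 2.

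Klf9, a zinc finger transcription factor gene that responds to thyroid hormone and to glucocorticoids, was at 6.68, 6.74 and 6.77 at 9 days. At 21 days it was at 7.24, 6.65 and 6.81 (log2). The younger arrays were close together, 21-day-old replicate 1 was the highest of all and 21-day-old replicate 2 the lowest. The means were 6.73 ± 0.047 and 6.90 ± 0.31 (SD, n = 3 each). The difference was 0.17 ± 0.16 (SE), or 1.13 times the younger level, with an interval from 0.861 to 1.48. Without 21-day-old replicate 1 the difference was 0.0013. Its mean signal lay at the 77.7 percentile of all genes. Leaving out each array in turn never turned the sign for Klf9, Thra or Thrb, though for Klf9 and Thrb the difference was near 0 without 1 array.

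The members differed in their profiles over the arrays. Likeness was taken as the root mean square distance between log2 signals over the 6 arrays, each gene centred on its own mean, among genes with an SD over arrays of at least 0.2. Between members, taken without this SD filter, it ran from 0.21 for Thra and Thrb to 0.43 for Dio2 and Klf9. Distances are small between genes that vary little, and Thra and Thrb had the smallest SDs over arrays, 0.15 and 0.10. Their profiles were not alike, since 21-day-old replicate 3 was lowest for Thra and highest for Thrb. The median distance to all such genes was between 0.28 (Thrb) and 0.42 (Dio2).

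Nearest to Thra were Slc49a4, a membrane transporter gene, at 0.060, Eefsec at 0.064 and Nol12, a nucleolar protein gene, at 0.068. Eefsec encodes the elongation factor that inserts selenocysteine, the residue in the active site of the deiodinases. It was at 6.30, 6.66 and 6.36 at 9 days and at 6.17, 6.50 and 6.10 at 21 days, highest in the number 2 arrays like Thra. Nearest to Klf9 were Cdr2 at 0.041, Gata2, which encodes a GATA transcription factor, at 0.054 and Kbtbd8 at 0.061. Each of them was highest in 21-day-old replicate 1, with 8.31 for Cdr2, 4.19 for Gata2 and 3.10 for Kbtbd8.

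Thrb itself varied less (SD 0.10) than the 0.2 asked of other genes, so flatter genes, which may lie nearer to it, were left out. Among the genes kept, the nearest were Chrnb1, a subunit of the muscle acetylcholine receptor, at 0.098 and Ube2d2b at 0.10. The unconventional myosin gene Myo10 followed at 0.10, and all 3 were highest in 21-day-old replicate 3. For Dio2 they were the ribonuclease gene Rnase1 at 0.095, the olfactory receptor gene Or52ad1 at 0.12 and Gulo, which acts in vitamin C synthesis, at 0.14. For Dio3 they were the vomeronasal receptor gene Vom1r56 at 0.098, Cactin at 0.10 and the olfactory receptor gene Or1o1 at 0.11. Chemosensory receptor genes were thus among the nearest to both deiodinases. Of the genes nearest to Dio3, Vom1r56, Or1o1 and Cactin lay at the 4.20, 4.52 and 52.5 percentiles of mean signal. Of those nearest to Dio2, Rnase1, Or52ad1 and Gulo lay at the 42.8, 28.4 and 43.3 percentiles.

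**Figure D2:**
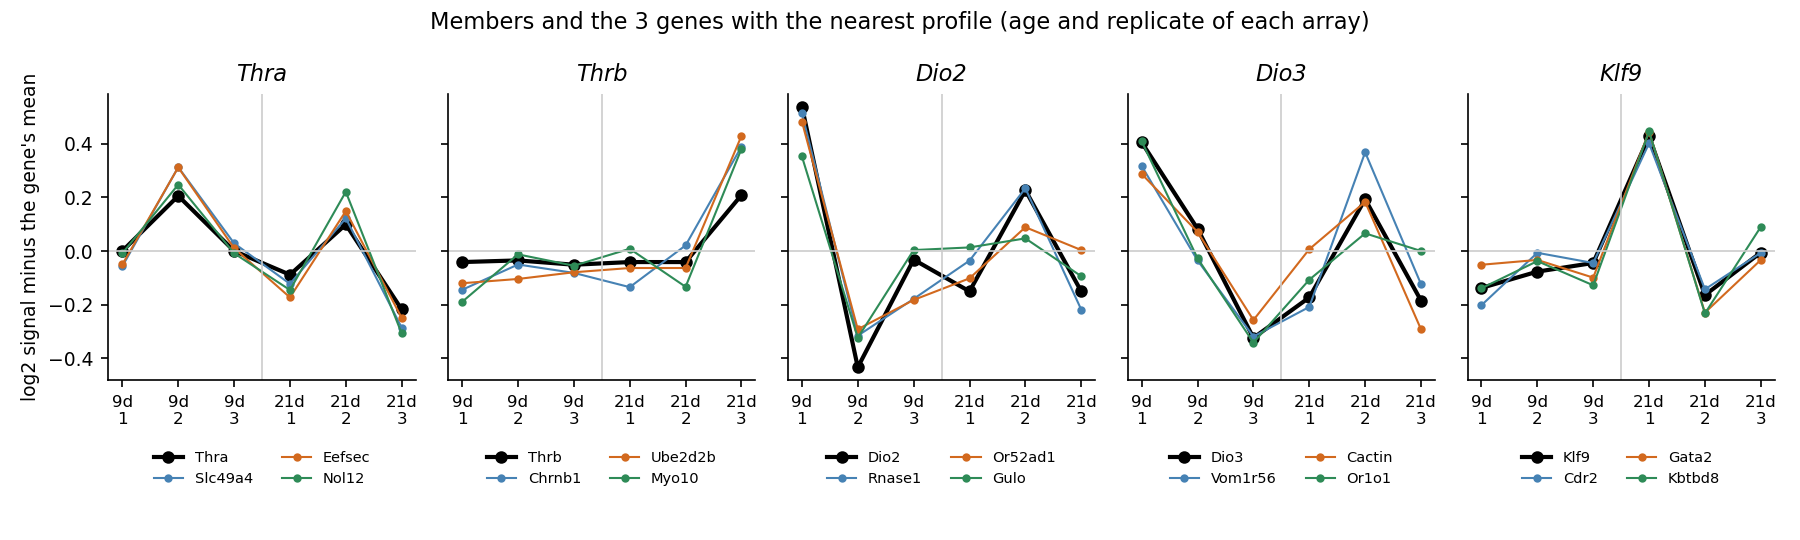
Log2 signal minus the gene's own mean on each of the 6 arrays (x axis, age and replicate number) for each member (black) and the 3 genes nearest to it by root mean square distance (colours). Klf9 and its neighbours stand out in 21-day-old replicate 1, Thrb and its neighbours in 21-day-old replicate 3, and Thra follows the replicate number more than the age.

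Other genes of the pathway were taken from lists by role, 116 genes of which 98 were measured. None of the 98 passed an adjusted p under 0.05 in limma, with or without the block. An unadjusted p under 0.05 was found for 4 of 98, beside 2.97% of all genes. With the block it was found for 9 of 98, beside 7.73% of all genes. Of these 98 genes 42 were higher and 56 lower at 21 days, or 42.9% higher, beside 46.5% of all genes. When each array was centred on its median, 31 of 98 were higher, beside 39.4% of all genes. The median difference was -0.033, against -0.0093 for all genes (log2). In the lists below no gene passed the adjusted test, so all values are descriptions. Their counts of higher and lower genes stand beside 46.5% higher over all genes, and 36.8% among the 7253 genes of highest mean signal.

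Hormone carriers were mostly lower at 21 days, 5 of 6 measured, with a median difference of -0.29, where 46.5% of all genes were higher. Slc7a5 and Slc7a8 encode light chains of amino acid carriers that also take up thyroid hormones, and Slc3a2 encodes the heavy chain they pair with. Slc3a2 was at 9.88, 9.93 and 10.17 at 9 days and at 9.65, 9.68 and 9.83 at 21 days (log2). Its ages did not overlap, as for 2.98% of all genes in this direction. The difference was -0.28 ± 0.10 (SE), with an unadjusted limma p of 0.038 and an adjusted p of 1. It is named after its values were seen, as the partner of both light chains and the carrier gene with an unadjusted p under 0.05.

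Slc7a5 was at 9.18, 9.07 and 9.80 at 9 days and at 8.92, 8.60 and 9.36 at 21 days. Slc7a8 was at 7.25, 7.55 and 8.13 at 9 days and at 7.05, 7.06 and 7.51 at 21 days. For each the number 3 array was highest at its age, so that the ages overlapped although all 3 pairs were lower at 21 days. The differences were -0.39 ± 0.27 for Slc7a5 and -0.44 ± 0.25 for Slc7a8 (SE), or -0.17 and -0.19 without 9-day-old replicate 3. With the block, 3 of the 6 carriers had an unadjusted p under 0.05, beside 7.73% of all genes, with limma adjusted p-values of 0.406 for Slc7a5, 0.451 for Slc7a8 and 0.477 for Slc3a2. The aromatic amino acid carrier gene Slc16a10 differed by -0.31 ± 0.19.

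**Figure D3:**
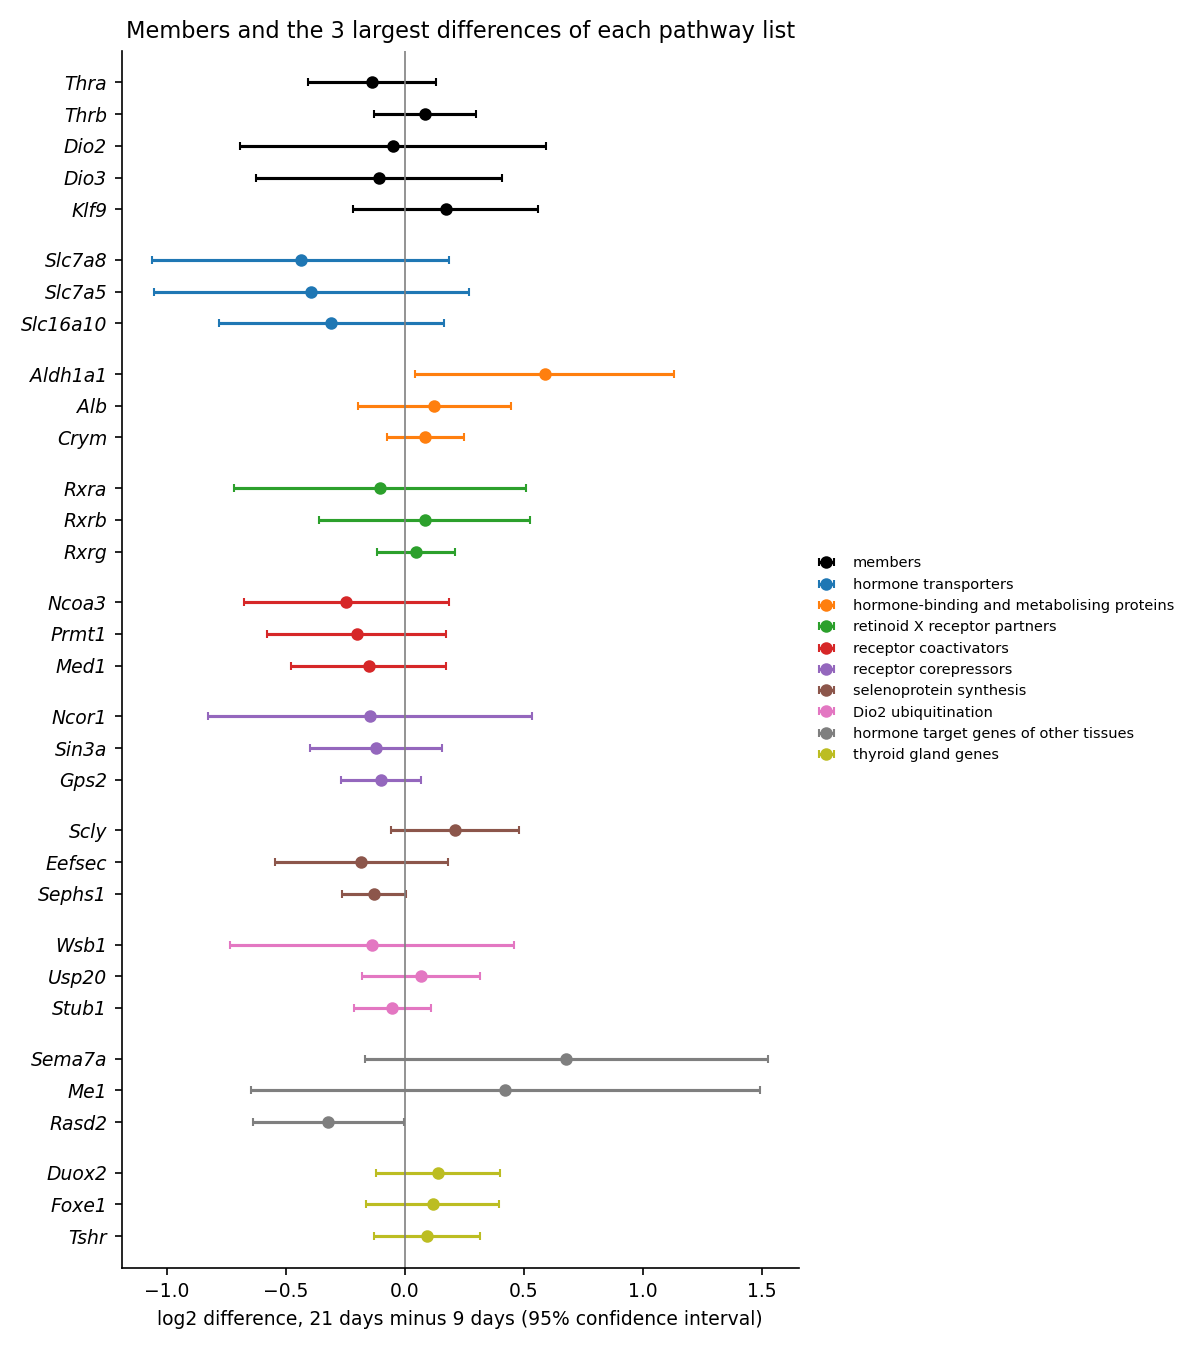
Log2 difference, 21 days minus 9 days, with its 95% confidence interval from limma (3 arrays an age), for the members (black) and the 3 largest differences of each pathway list (colours). The intervals of all 5 members include 0, and those of the carriers Slc7a8, Slc7a5 and Slc16a10 lie mostly to the left of it.

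No receptor partner or cofactor passed the test. The retinoid X receptor genes differed by -0.10 ± 0.25 (Rxra), 0.083 ± 0.18 (Rxrb) and 0.046 ± 0.066 (Rxrg), in log2 with SE. The sign turned for Rxra without 21-day-old replicate 3 (0.13) and for Rxrb without 21-day-old replicate 2 (-0.12). Of 12 coactivator genes 9 were lower at 21 days, led by the steroid receptor coactivator gene Ncoa3 (-0.25 ± 0.17), the arginine methyltransferase gene Prmt1 (-0.20 ± 0.15) and the Mediator subunit gene Med1 (-0.15 ± 0.13). Of 9 corepressor genes 8 were lower, with a median of -0.087. Most of these cofactors are among the 7253 genes of highest mean signal, of which only 36.8% were higher, so lower values were common there. Ncor1, the nuclear receptor corepressor, differed by -0.15 ± 0.28 and turned to 0.086 without 21-day-old replicate 2, while Sin3a and Gps2, both subunits of repressor complexes, differed by -0.12 ± 0.11 and -0.10 ± 0.068. The deacetylase gene Hdac3, which acts with Ncor1, was between 8.74 and 8.84 on all arrays.

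Genes that support the deiodinases were measured as well. Of 8 genes of selenoprotein synthesis 6 were lower at 21 days, with a median of -0.065. Sephs1, a homologue of selenophosphate synthetase, was lower without overlap by -0.13 ± 0.055 (log2, SE), Eefsec differed by -0.18 ± 0.15 and the selenocysteine lyase gene Scly by 0.21 ± 0.11. Among 6 genes that attach ubiquitin to the Dio2 protein or remove it, 4 were lower, and the adaptor gene Wsb1 differed by -0.14 ± 0.24 (0.053 without 9-day-old replicate 3), Usp20 by 0.068 ± 0.10 (-0.028 without 9-day-old replicate 1) and Stub1 by -0.052 ± 0.065. Of 10 genes of hormone binding and metabolism 7 were higher, with a median of 0.0074. The largest differences were those of the retinal dehydrogenase gene Aldh1a1 (0.59 ± 0.22, unadjusted limma p 0.039) and the serum carrier albumin, Alb (0.12 ± 0.13). The cytosolic binder of triiodothyronine, Crym, followed with 0.086 ± 0.066. Signals of Aldh1a1, Alb and Crym lay below the medians of all arrays. Dio1, the gene of type 1 deiodinase, was between 2.43 and 2.63 on all arrays, near the lower quartiles of the arrays, 2.61 to 2.65.

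Target genes known from other tissues were split, with 13 of 24 higher and 11 lower at 21 days and a median of 0.0035. The semaphorin gene Sema7a had a log2 difference of 0.68 ± 0.34 (SE) that was 0.33 when 21-day-old replicate 3 was left out, and the malic enzyme gene Me1 by 0.42 ± 0.43, or by 0.055 without that array. Rasd2, a small GTPase gene, differed by -0.32 ± 0.13 without overlap of the ages. The classic target genes Hr, a corepressor gene, and Thrsp, a lipogenic gene of liver, lay at 2.71 to 3.14 and 3.17 to 3.34 over the arrays, below the medians of all arrays. Hr differed by 0.17 ± 0.097 and Thrsp by 0.00058 ± 0.073. Genes of the thyroid gland served as transcripts that testis cells are not known for. Thyroglobulin, Tg, was at the same deposited value, 2.51, on 5 of 6 arrays. Signals of this list were not all low, since Nkx2-1 was between 4.85 and 5.10 on all arrays, above their medians, 3.78 to 3.87. The 3 largest differences among these 8 genes were 0.14 ± 0.11 for Duox2, 0.12 ± 0.11 for Foxe1 and 0.093 ± 0.091 for Tshr.

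Genes that general knowledge links to thyroid hormone in Sertoli cells were higher at 21 days for 5 of 12 and lower for 7, with none passing in limma. An unadjusted limma p under 0.05 was found for 1 of 12, beside 2.97% of all genes. With the block it was found for 4 of 12, beside 7.73% of all genes. Whether the hormone had a part in these differences was not tested. Igf1, a growth factor gene, was at 6.37 ± 0.12 and 5.73 ± 0.26 (log2, SD, n = 3 each). Its ages did not overlap, and its difference of -0.63 ± 0.15 (SE) had an unadjusted limma p of 0.0055 and an adjusted p of 1. The cell cycle inhibitor genes Cdkn1b and Cdkn1a differed by -0.22 ± 0.15 and -0.13 ± 0.40, the latter by 0.24 without 21-day-old replicate 3. Amh differed by 0.21 ± 0.091 with no overlap, at signals below the medians of all arrays. The gap junction gene Gja1 differed by -0.14 ± 0.10, the inhibin subunit gene Inha by 1.03 ± 0.63 (0.43 without 21-day-old replicate 3) and the clusterin gene Clu by 0.69 ± 0.40 (0.31 without that array). The other genes of this list differed by 0.25 ± 0.51 (Igfbp3, -0.064 without 21-day-old replicate 1), -0.21 ± 0.40 (Ncam1), -0.19 ± 0.22 (Slc2a1), -0.061 ± 0.10 (Vim) and 0.025 ± 0.33 (Itgb1). Without 9-day-old replicate 3 these were 0.14 for Ncam1, 0.037 for Slc2a1 and 0.028 for Vim, and Itgb1 differed by -0.30 without 21-day-old replicate 3.

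Klf9 and the receptors can be set beside their gene families. Of 15 Krüppel-like factor genes 8 were higher and 7 lower at 21 days. Only 2 had a larger absolute difference than Klf9, Klf11 (-0.27 ± 0.12, log2, SE, without overlap) and Klf10 (0.21 ± 0.16). Of 37 other nuclear receptor genes 23 were higher, with a median of 0.064. The largest differences were 0.29 ± 0.30 for Nr0b2 (-0.058 without 21-day-old replicate 3), 0.27 ± 0.29 for the immediate early gene Nr4a1 and 0.26 ± 0.18 for Esrrg. In absolute size, the difference of Klf9 lay at the 81.4 percentile of all genes, that of Thra at 73.7, Dio3 at 64.8, Thrb at 54.2 and Dio2 at 34.2.

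Cell type markers differed by replicate number as well as by age. Markers of peritubular myoid and smooth muscle cells, 9 measured of 10 and 0 of them below the mean array median, had a mean log2 signal between 8.47 and 9.89 at 9 days and between 7.76 and 9.64 at 21 days. The number 3 array was the highest at each age, and the one at 21 days is the array that set the difference of Thrb. Sertoli cell markers, 18 of 20, lay between 4.86 and 5.01 at 9 days and between 5.0 and 5.87 at 21 days, highest in 21-day-old replicate 3. Of these, 7 were below the mean array median, among them Fshr (2.57 and 2.89), Gata1 and Amh, while Wt1 was at 6.98 and 7.20 and Clu at 9.28 and 9.97. Of the 18 Sertoli cell markers, 15 were higher at 21 days, beside 46.5% of all genes. Their differences ran from -0.32 to 3.59 (log2). The median difference was 0.22 and that of the list's mean signal 0.47, so the mean leans on its largest differences. The ages did not overlap for 4 of the 18, all higher, beside 2.74% of all genes. None of the 18 passed the adjusted test. Fibroblast markers, 8 of 8 and 0 below, lay between 8.99 and 9.12 at 9 days and between 8.79 and 9.19 at 21 days. Of these 8, 6 were lower at 21 days, 1 of them without overlap, with differences from -0.73 to 1.03 (log2). Of the 9 smooth muscle markers 8 were lower, all with overlap. The label of Sertoli cells thus stands beside strong signals of genes listed as markers of smooth muscle cells and fibroblasts. Signals of different probe sets are not amounts of transcript, and which cells made these transcripts was not tested.

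Macrophage markers (8 of 8, all below the mean array median) lay between 2.79 and 2.91 at both ages. Endothelial markers (7 of 8, 6 below) lay between 3.23 and 3.58 at both ages, and germ cell markers (9 of 10, 8 below) between 3.13 and 3.63. Leydig cell markers, 7 of 8 and 4 below, lay between 4.45 and 4.56 at 9 days and between 4.55 and 4.78 at 21 days. Higher at 21 days were 5 of 7 Leydig cell, 7 of 9 germ cell, 4 of 7 endothelial and 4 of 8 macrophage markers, beside 46.5% of all genes. The ages did not overlap for 2 Leydig cell markers, higher, and 1 germ cell marker, lower, beside 2.74% and 2.98% of all genes. None passed the adjusted test. The part of cell composition in the members' values was not tested. Without both number 3 arrays Thra differed by -0.098, Thrb by -0.0031, Dio2 by -0.014, Dio3 by -0.23 and Klf9 by 0.24.

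**Figure D4:**
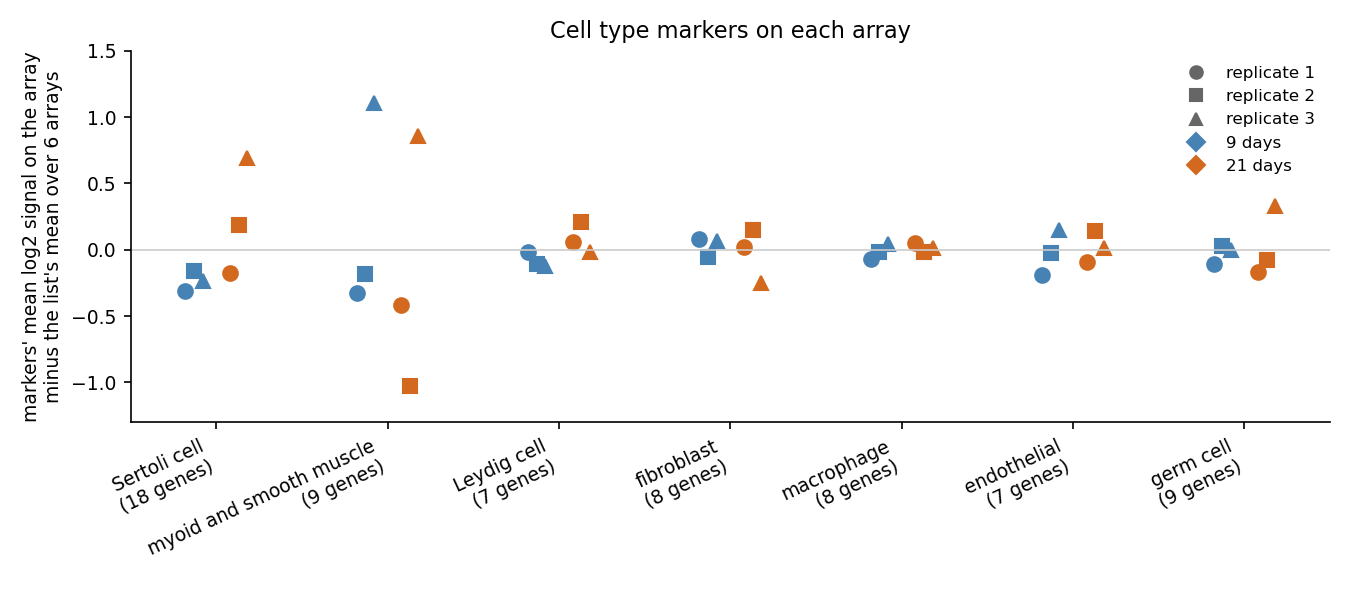
Mean log2 signal of each list of cell type markers on each array, minus the list's mean over the 6 arrays (blue, 9 days; orange, 21 days; symbols, replicate numbers). Smooth muscle markers are highest in both number 3 arrays, and Sertoli cell markers in 21-day-old replicate 3.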

How the data were processed

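The deposited table holds log2 values for 29214 probe sets on 6 arrays. Per the submitters' processing notes the authors used RMA, a method of background correction, quantile normalization and summary over probes. Its version is not given in the sources used here. Age and replicate number come from the sample titles. Probe sets with 1 gene symbol (15310) were named through the platform annotation, and 13581 had no symbol. For genes with several probe sets, the one of highest mean was used. Neither detection calls nor scan dates entered, which leaves the detection limit and any batches unknown, and the number of arrays limits precision (median SE 0.112, log2).

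Ages were compared with limma 3.58.1 in R 4.3.3 (lmFit, eBayes; no covariate or filter; Benjamini-Hochberg over 14506 genes, threshold 0.05), which was also checked on simulated data. Same-numbered arrays deviated together from their age means across genes (correlations of 0.439, 0.549 and 0.673), so the titles' numbers were taken as pairs and the block was an alternative. Members and lists were chosen with earlier results of these data known. The text names all members, the 3 largest differences of each list, all genes of the list for Sertoli cells, Nr1d1 and the 3 nearest genes of each member. Hdac3, Dio1, Hr, Thrsp, Tg, Nkx2-1 and Slc3a2 were added after their values were seen. Figures used matplotlib 3.10.9 in Python 3.11.15.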

Additional observations from a re-analysis of the deposited data

How the results depend on the processing

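No gene passed the adjusted threshold under any of the 16 alternatives, the replicate block included (0 genes, as without it), and the block changed no call. Its lowest adjusted p was 0.132, against 0.685 without it, with 1122 against 431 genes at an unadjusted p under 0.05. With the block the adjusted p was 0.732 for Thra, 0.858 for Thrb, 0.973 for Dio2, 0.901 for Dio3 and 0.820 for Klf9. The signs of Thra and Klf9 held in all 16 alternatives. The sign of Thrb turned without both arrays numbered 3 (-0.0031). With each array left out in turn, differences ran from -0.22 to -0.063 for Thra, 0.0013 to 0.13 for Thrb, -0.28 to 0.21 for Dio2, -0.30 to 0.066 for Dio3 and 0.0013 to 0.30 for Klf9. The signs of Dio2 and Dio3 turned only in some of these. Pathway genes higher at 21 days numbered 36 to 50 of 98 in the same settings. They numbered 16 of 59 when only the 7253 genes of highest mean were kept, which tests fewer genes, beside 36.8% of all genes kept. Dio2 was not among the 10879 or 7253 genes kept by the filters on mean signal, and Thrb and Dio3 not among the 7253, so these settings give no value for them.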
